A study of Mus musculus with 12 samples.

Results

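Antibiotic treatment was compared with no treatment in hematopoietic stem cells (HSCs) of mice that had received no chemotherapy. The comparison takes 6 of the 12 libraries of the series, 3 labelled ABX and 3 labelled Ctrl, and takes its members from these labels. All mice were C57BL/6, aged 12 weeks, and carried no labelled genetic change. ABX mice had vancomycin, metronidazole, neomycin and ampicillin in the water they drank for 4 to 6 weeks, and Ctrl mice had none. The other 6 libraries, used here for a second reading of the same antibiotic difference, come from Ctrl and ABX mice injected with 5-fluorouracil (5-FU) at 200 mg/kg and sampled at day 12. Every library holds RNA of 2000 HSCs sorted from bone marrow and amplified before sequencing. No label says that the replicates are different animals, so a p-value here measures only the spread between libraries. The values are RPKM, reads per kilobase of gene and per 1 M reads, and positions refer to mm10.

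HSCs sit at the top of blood formation, divide rarely, and give rise to the erythroid, megakaryocyte, myeloid and lymphoid branches. They carry receptors for interferons and for microbial products, and in mice with a normal flora the gut bacteria are known to maintain a low standing level of interferon signalling. Type I interferons act through JAK1 and TYK2 on a complex that holds STAT2 and IRF9 and binds the interferon-stimulated response element of its target genes. Interferon gamma acts at the gamma-activated site, and both kinds raise the genes of antigen presentation. A broad antibiotic mixture is used to deplete the bacteria that feed this signalling. The bacteria themselves were not measured here.

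Genes that mark HSCs were present in all 6 libraries, and some of them differed between the groups, as given with the HSC lists. Kit, the stem cell factor receptor, lay between 13.3 and 17.4 RPKM in the 6 libraries, and Procr, the endothelial protein C receptor used to sort HSCs, between 15.9 and 22.3. Cd3e of T cells and Il7r of lymphoid progenitors were at the floor of the table in all 6 libraries, and Cd79a, Dntt, Adgre1, Cdh5 and Col1a1 did not exceed 0.0757 RPKM. Other markers of mature cells were present in both groups with overlap, C1qa of macrophages at 0.4996 to 5.92 RPKM, and S100a8 and Ngp of neutrophils at 5.22 to 11.8 and 0.464 to 3.21 RPKM. Estimated depth did not overlap between the groups, with 44.3 to 54.9 M reads in control and 29.2 to 37.7 M reads in antibiotic libraries, while the summed RPKM did overlap (165097 to 174252 and 165856 to 176924). RPKM is scaled to depth, but values of a few RPKM are less precise in the shallower antibiotic libraries, and the part of depth in the results was not tested. Control replicate 1 stood apart in blood-cell transcripts, with the globin Hba-a1 at 74.0 RPKM against 1.13 to 4.38 in the other 5 libraries and the platelet chemokine Pf4 at 105.5 against 22.04 to 45.8. Correlations of log2 values across genes were 0.987 to 0.993 within control, 0.985 to 0.989 within antibiotics and 0.974 to 0.991 between the groups. Features annotated as pseudogenes held 44.0% to 46.0% of the summed RPKM in these 6 libraries. Reads of a gene with such copies may be placed on them, so its value need not be its full level.

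Few features separated the groups after adjustment, and those that were higher were non-coding RNAs. limma was run on log2(RPKM + 1) for 8553 genes, those with 1 RPKM or more in at least 3 of the 12 libraries. At an adjusted p under 0.05 the test called 6 of them (0.0702%). With antibiotics 3 were higher (0.0351%) and 3 lower (0.0351%). The small nuclear RNA Rn7sk, the micro-RNA locus Mir6236 and the ribosomal RNA copy Rn18s-rs5 were higher. The part that RNA capture and amplification had in the values of these non-coding RNAs was not tested. The predicted gene Gm5537 and the coding genes Ccdc28b and Zfp513 were lower.

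Rn7sk encodes 7SK, a small nuclear RNA that is not polyadenylated and that holds the elongation factor P-TEFb in an inactive complex with HEXIM proteins. The gene lies at chr9:78175303-78175633 on the minus strand and has no intron. Its values were 13.6, 17.6 and 16.4 RPKM in control and 49.2, 54.0 and 53.7 in antibiotic libraries, so that each antibiotic library was above every control library. The means were 15.9 ± 2.08 and 52.3 ± 2.67 (SD, n = 3), a log2 change of 1.67 ± 0.16 (SE, adjusted p = 0.00285 with limma). After 5-FU the antibiotic libraries were again higher, with a log2 change of 1.27 ± 0.16 (adjusted p = 0.009 with limma). The first 120 bases of the 331-base RNA are printed below because they carry the feature called first in this comparison. The capitals mark GATC (GAUC in the RNA), the letters that are known to form the HEXIM-binding part of its first hairpin. They occur 3 times in this stretch, which comes from the GENCODE M21 transcripts and is written as DNA.

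Rn7sk: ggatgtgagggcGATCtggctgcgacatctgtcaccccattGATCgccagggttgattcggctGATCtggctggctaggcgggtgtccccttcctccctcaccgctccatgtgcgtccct

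Mir6236 lies at chr9:110281287-110281409 on the plus strand. The table counts reads over its 123-base hairpin, which is longer than the mature RNA, so the value is not a level of the mature micro-RNA. It measured 15.02, 18.2 and 20.7 RPKM in control and 41.1, 52.0 and 37.2 in antibiotic libraries, without overlap. The means were 18.0 ± 2.84 and 43.4 ± 7.63 (SD, n = 3), a log2 change of 1.23 ± 0.17 (SE, adjusted p = 0.036 with limma).

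Rn18s-rs5 is a copy of ribosomal RNA sequence at chr17:39846353-39848827 on the minus strand. It measured 1465.8, 1279.5 and 1382.5 RPKM in control and 2324.4, 1863.8 and 2188.9 in antibiotic libraries. The log2 change was 0.62 ± 0.09 (SE, adjusted p = 0.0389 with limma) and was 0.92 ± 0.09 after 5-FU (adjusted p = 0.00206 with limma). Reads of the ribosomal RNA repeats may be shared among copies, so the value need not come from this locus. Other non-coding features had the same pattern without passing the test. Rn7s1, a gene of the signal recognition particle RNA, measured 52.4, 44.1 and 44.1 RPKM in control and 71.3, 89.8 and 105.8 with antibiotics (log2 change 0.90 ± 0.18, adjusted p = 0.0846 with limma). Its copy Rn7s2 had identical values in all 12 libraries, so the pair counts as 1 measurement. The 5.8S ribosomal RNA gene n-R5-8s1 measured 5.94, 4.00 and 6.26 RPKM in control and 30.4, 8.78 and 10.1 with antibiotics, with antibiotic replicate 1 far above the rest.

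Gm5537 was the largest of the called differences. It measured 15.6, 10.53 and 8.91 RPKM in control and 1.25, 0.689 and 2.74 in antibiotic libraries, a log2 change of -2.35 ± 0.28 (SE, adjusted p = 0.0132 with limma). The feature, at chr3:58102996-58104247 on the minus strand, is identical over its 1252 bases to a transcript of Pgk1, the glycolytic phosphoglycerate kinase. Reads could be placed on either. The sum of Gm5537, Pgk1 and the retroposed copy Pgk1-rs7 was 139.07, 121.25 and 119.37 RPKM in control and 129.0, 123.65 and 123.59 with antibiotics, and these sums overlap. The level of Gm5537 is therefore uncertain.

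The remaining pair were spliced coding genes with small and tight differences. Ccdc28b, which encodes a coiled-coil protein known as a modifier of Bardet-Biedl syndrome, lies at chr4:129619274-129623947 on the minus strand. It measured 5.41, 5.36 and 5.57 RPKM in control and 3.67, 3.90 and 3.52 with antibiotics, a log2 change of -0.46 ± 0.06 (SE, adjusted p = 0.036 with limma). Zfp513, which encodes a zinc finger protein, lies at chr5:31198981-31202303 on the minus strand. It measured 6.00, 5.82 and 6.59 RPKM in control and 3.75, 3.56 and 3.97 with antibiotics, a log2 change of -0.58 ± 0.09 (SE, adjusted p = 0.0389 with limma). The 3 antibiotic libraries were below the 3 controls for each gene. After 5-FU the log2 differences were -0.07 for Ccdc28b and 0.17 for Zfp513, and neither passed the test.

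**Figure D1:**
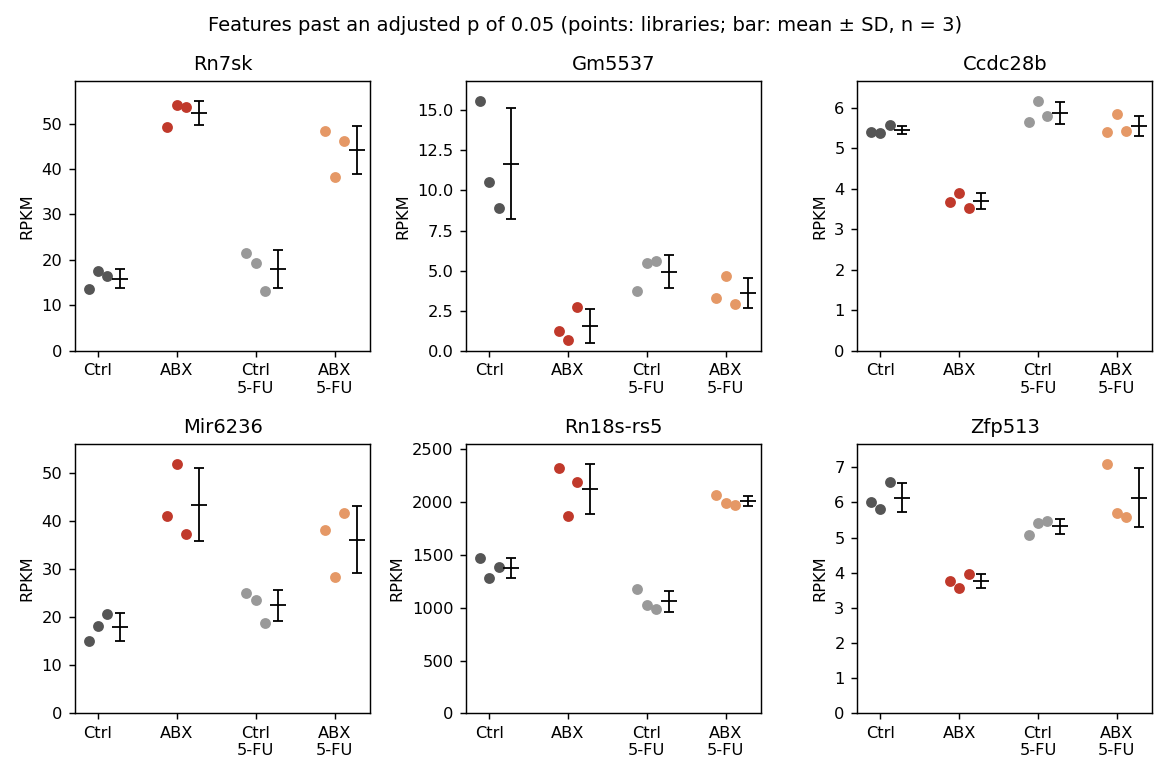
RPKM of the 6 features past an adjusted p of 0.05 in each of the 12 libraries, by group (Ctrl, ABX, and each at day 12 after 5-FU). Points are libraries and bars the mean ± SD (n = 3). At steady state the groups do not overlap in any panel, with Rn7sk at 13.6 to 17.6 RPKM in control and 49.2 to 54.0 with antibiotics.

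The list of called features depended on single libraries. Without antibiotic replicate 3 the count was 29, and without antibiotic replicate 1 or 2 it was 1 and 4. Without control replicate 1, 2 or 3 it was 2, 1 and 2. Rn7sk was called in each of these fits. In a fit of the 6 steady-state libraries alone, 5 features passed, Rn7sk, Hist1h2ab, Hist2h2ac, Klf1 and Gm3788, so that 5 of the 6 called above lost their call. A fit of the same 6 libraries with the sequencing index as a block called Rn7sk, Gm5537, Mir6236 and Rn18s-rs5. It did not call Ccdc28b and Zfp513, which had no call in these libraries without the block either. When the fit and the adjustment were limited to protein-coding genes, 0 passed in limma while 1285 of 7212 had an unadjusted p under 0.05.

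Below the adjusted threshold the groups differed in many genes by small amounts. An unadjusted p under 0.05 was found for 1519 genes (17.8%), 928 of them higher (10.8%) and 591 lower (6.91%). In 1115 genes (13.0%) every antibiotic library was above every control library, and in 775 (9.06%) every antibiotic library was below; these genes are called higher or lower without overlap from here on. The split depended on the scaling, being 795 higher and 1072 lower when each library was rescaled to one total. Only 28 genes had a log2 difference of 1 or more in size, 19 higher and 9 lower, and the median over all genes was 0.02. No member of the gene lists described next passed the adjusted test, so their values are given as differences and not as changes. The lists were read by the share of measured members without overlap, set against 13.0% and 9.06%. The filter reads all 12 libraries, so a gene of low level can be measured only because it is high in a single group. These shares grow when a library is left out, since fewer values must be separated. Without control replicate 1, 2 or 3 the share of all genes lower was 13.6%, 15.1% and 13.2%, and the share higher 24.3%, 15.9% and 17.6%. Without antibiotic replicate 1, 2 or 3 the shares were 11.5%, 11.8% and 18.5% lower, and 17.4%, 17.3% and 22.1% higher.

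**Figure D2:**
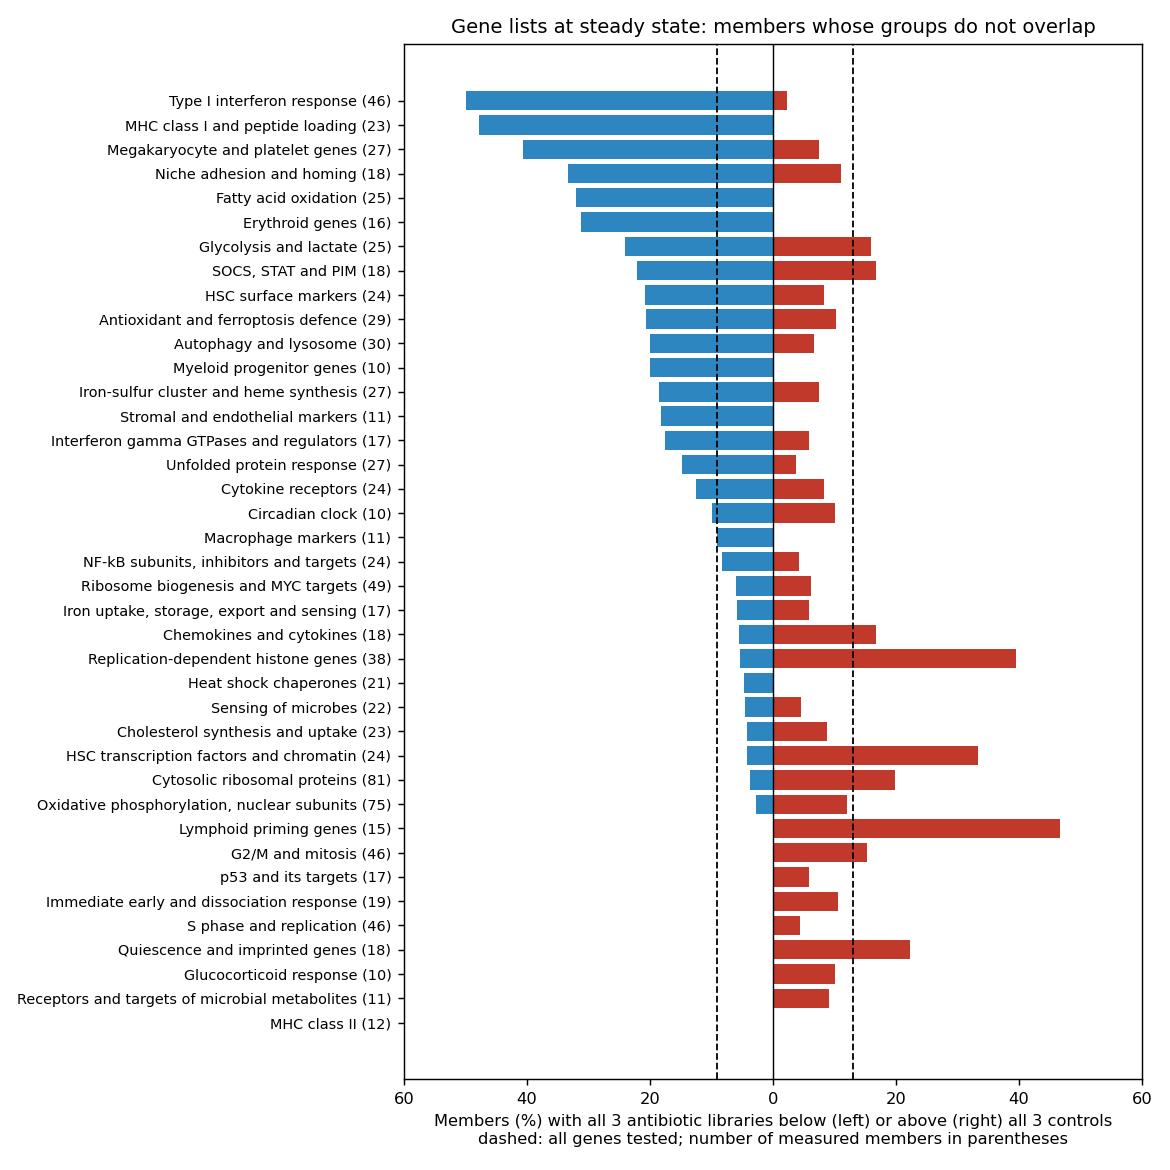
Share of the measured members of each gene list (horizontal axis, percent) for which all 3 antibiotic libraries lay below (left, blue) or above (right, red) all 3 control libraries, with the number of measured members after each name. Dashed lines mark the shares over all 8553 genes tested, 9.06% lower and 13.0% higher, and lists with 10 or more measured members are shown. Type I interferon genes, 50.0% of them lower, and MHC class I genes, 47.8% lower, lie farthest to the left.

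Type I interferon response genes were lower with antibiotics in most cases, by modest amounts. Of 46 measured members, 36 had a negative log2 difference, 23 were lower without overlap (50.0%, against 9.06% of all genes) and 1, Ifitm2, was higher without overlap. The median was -0.25, against 0.02 over all genes, and 21 members had an unadjusted p under 0.05, each of them lower (6.91% of all genes). The mean log2 level of the list was 2.89, 2.85 and 2.70 in control libraries and 2.62, 2.54 and 2.63 in antibiotic libraries, without overlap. The summed RPKM of the list, which the abundant Ifitm genes dominate, did overlap, at 1388.1 to 1505.2 in control and 1358.4 to 1510.9 with antibiotics. Leaving out any 1 library left 23 to 32 members lower without overlap, 23 of them without control replicate 1. Over the same settings the share lower among all genes was 11.5% to 18.5%. Under 3 other scalings of the libraries 24 to 27 members were lower without overlap, beside 10.94% to 12.72% of all genes.

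The members with the smallest p were an oligoadenylate synthetase relative and a pair of small induced proteins. Oasl1, which restrains translation of Irf7, measured 1.47, 1.20 and 0.811 RPKM in control and 0.546, 0.484 and 0.677 with antibiotics (log2 difference -0.45 ± 0.10, adjusted p = 0.0969 with limma). Ifi27, a small interferon-induced membrane protein, measured 10.8, 12.0 and 9.003 RPKM in control and 5.35, 7.05 and 7.29 with antibiotics (-0.62 ± 0.14, adjusted p = 0.101 with limma). Ifi44 measured 5.48, 4.40 and 3.33 RPKM in control and 2.27, 2.33 and 2.55 with antibiotics (-0.66 ± 0.16, adjusted p = 0.11 with limma). In each of the 3 genes the groups did not overlap, and the control libraries were more spread than the antibiotic libraries for Ifi44 and Oasl1.

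The transcription factors that carry the signal were also lower without overlap. Irf7, which amplifies type I interferon production, measured 15.8, 15.8 and 10.6 RPKM in control and 10.1, 9.88 and 9.30 with antibiotics (-0.47 ± 0.16). Other factors of the pathway, picked after their values were seen, showed the same order. Irf9 measured 30.3, 30.2 and 28.3 RPKM against 20.5, 21.6 and 24.1, and Stat2 measured 2.27, 2.30 and 2.28 against 1.997, 1.46 and 1.73. Among effectors of the list that were also picked in this way, the ubiquitin-like Isg15 measured 15.4, 13.1 and 11.2 RPKM in control against 10.4, 8.97 and 7.74. The nucleic acid sensor Zbp1 measured 1.79, 1.75 and 1.83 against 0.929, 0.644 and 1.35. The RNA-activated kinase gene Eif2ak2 measured 1.67, 1.98 and 2.04 against 1.55, 1.32 and 1.51, a difference near the smallest of the group.

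Not every interferon gene was lower. Ifit3, a cap-binding antiviral protein, measured 1.25, 1.38 and 0.861 RPKM in control and 2.48, 0.493 and 1.41 with antibiotics, and the antibiotic libraries lay on both sides of the controls (0.11 ± 0.36). Without antibiotic replicate 1 its difference was -0.18. Ifitm1, a membrane protein of high level in HSCs, measured 245.4, 214.5 and 273.7 RPKM in control and 252.2, 265.8 and 323.0 with antibiotics, with overlap (0.20 ± 0.11). The most negative difference of the list was -0.66, for Ifi44, and the most positive 0.20, for Ifitm1.

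**Figure D3:**
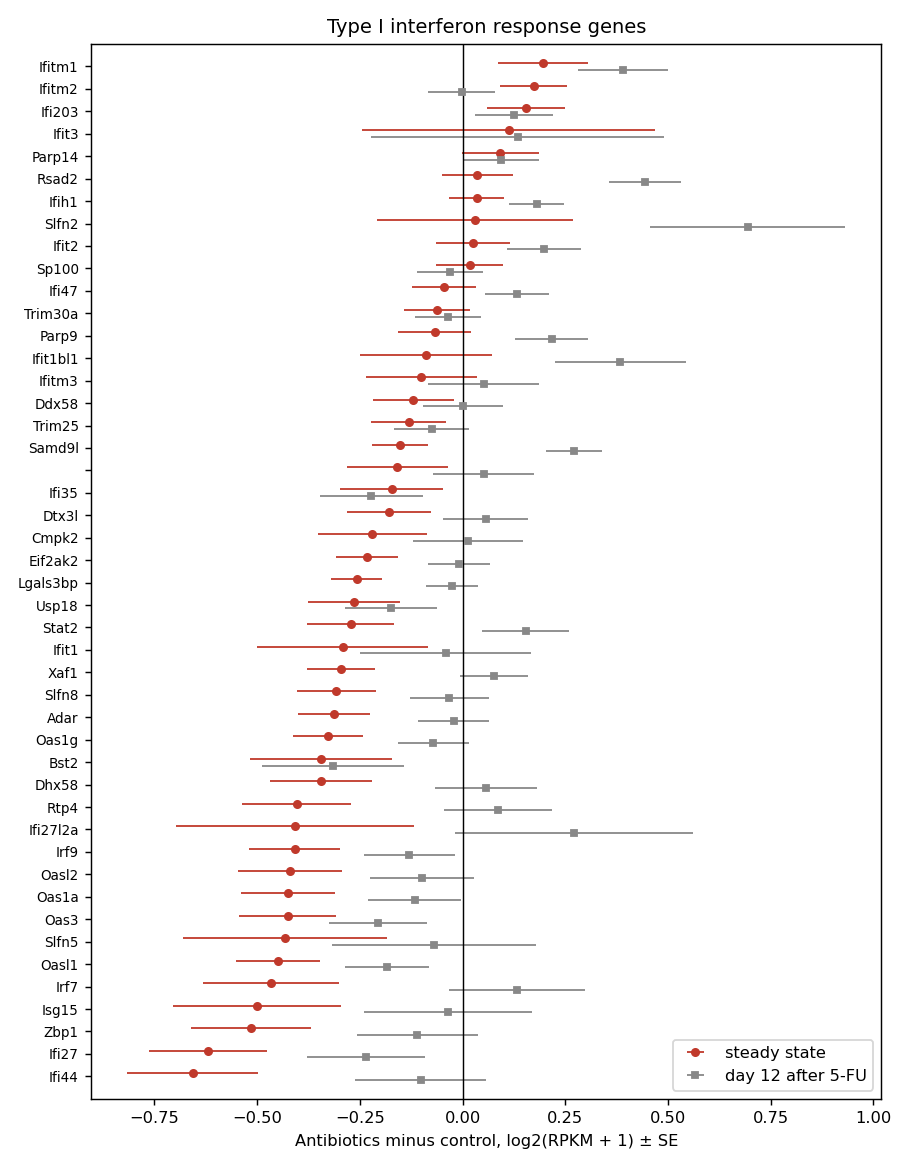
Log2 difference, antibiotics minus control, of the 46 measured type I interferon response genes at steady state (red circles) and at day 12 after 5-FU (grey squares). Horizontal axis is log2(RPKM + 1) and bars are ± SE of the limma fit; 1 row carries no name. At steady state 36 of the 46 lie left of 0, and after 5-FU 23 of the 46 do.

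Genes of the interferon gamma response had a median of -0.22 over 17 measured members, with 15 below 0, but 3 lower without overlap (17.6%, against 9.06%). The GTPase Irgm1, which acts on vacuoles and autophagy, measured 18.5, 19.6 and 18.4 RPKM in control and 16.0, 14.9 and 16.5 with antibiotics (-0.24 ± 0.08, adjusted p = 0.171 with limma). Its relative Irgm2 measured 4.16, 6.82 and 5.47 RPKM against 3.71, 3.43 and 4.43, with overlap (-0.40 ± 0.14). Socs1, the feedback inhibitor of JAK kinases and itself an interferon target, went the other way. It measured 2.54, 1.71 and 1.54 RPKM in control and 6.24, 4.39 and 2.97 with antibiotics, without overlap (0.89 ± 0.24, adjusted p = 0.137 with limma). Without control replicate 1 or without antibiotic replicate 3, 10 of the 17 members were lower without overlap, beside 13.6% and 18.5% of all genes.

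The promoters of these lists were searched for the letters of both response elements, as a description. RefSeq promoters of GRCm38.p6 span 250 bases before to 50 after each gene start, and both strands were read. The interferon-stimulated response element was taken as GAAANNGAAA and the gamma-activated site as TTCNNNGAA, and a stretch of letters may hold overlapping copies. The first was present in 4.0% of 27025 genes with a promoter and in 4.1% of those tested. It was present in 19 of 37 type I interferon genes with a promoter (51.4%), 10 of 13 interferon gamma genes (76.9%) and 5 of 19 MHC class I genes (26.3%). The gamma-activated site was present in 9.6% of all, 18.9%, 61.5% and 2 of 19 in these lists. Among type I genes lower without overlap, 8 of 18 held the response element letters (44.4%), and among the other members 11 of 19 did (57.9%). The promoters of Oasl1, Ifi44, Irf7, H2-D1 and Zfp513 did not hold them in this window.

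The 3 promoters below come from the named member of each list with the smallest p among those whose promoter holds these letters. Between the groups Ifit3 overlapped, Socs1 was higher and H2-T22 lower. Capitals mark the interferon-stimulated response element letters on either strand. Ifit3 is at chr19:34583279-34583578 (plus strand), with copies starting 156 and 122 bases before the gene start. Socs1 is at chr16:10785487-10785786 (minus strand), with overlapping copies at 83 and 77. H2-T22 is at chr17:36042693-36042992 (minus strand), with 1 copy at 191.

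Ifit3: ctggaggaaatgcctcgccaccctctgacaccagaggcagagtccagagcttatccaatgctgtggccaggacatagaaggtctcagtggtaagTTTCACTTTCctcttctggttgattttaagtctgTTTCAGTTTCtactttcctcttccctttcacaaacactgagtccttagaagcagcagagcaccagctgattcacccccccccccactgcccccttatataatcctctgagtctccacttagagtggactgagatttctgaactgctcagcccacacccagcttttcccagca

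Socs1: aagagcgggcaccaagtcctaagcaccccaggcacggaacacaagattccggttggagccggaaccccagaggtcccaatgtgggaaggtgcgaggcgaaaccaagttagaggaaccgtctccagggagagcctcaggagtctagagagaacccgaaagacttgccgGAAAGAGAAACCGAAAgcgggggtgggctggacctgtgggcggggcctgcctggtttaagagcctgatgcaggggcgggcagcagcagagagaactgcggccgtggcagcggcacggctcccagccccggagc

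H2-T22: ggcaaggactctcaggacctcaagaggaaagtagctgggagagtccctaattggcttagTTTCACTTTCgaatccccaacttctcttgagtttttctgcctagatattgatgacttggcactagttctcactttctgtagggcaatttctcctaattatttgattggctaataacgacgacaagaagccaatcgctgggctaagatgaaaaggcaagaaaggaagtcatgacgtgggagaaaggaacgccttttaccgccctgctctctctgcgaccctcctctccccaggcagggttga

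MHC class I genes and the machinery that loads peptides on them were lower with antibiotics. Of 23 measured members, 11 were lower without overlap (47.8%, against 9.06%) and 0 higher. The median was -0.23 and 13 had an unadjusted p under 0.05, each lower. H2-D1, a classical class I heavy chain, measured 686.2, 622.6 and 635.1 RPKM in control and 452.7, 476.1 and 547.8 with antibiotics (log2 difference -0.40 ± 0.08, adjusted p = 0.0819 with limma). The non-classical H2-T22 measured 16.3, 17.4 and 17.6 RPKM against 11.5, 12.5 and 13.6 (-0.43 ± 0.09, adjusted p = 0.0846 with limma). H2-T23, which encodes the ligand of NKG2A receptors, measured 182.3, 175.8 and 191.9 RPKM against 137.4, 138.5 and 157.4 (-0.34 ± 0.09). Antibiotic replicate 3 was the highest of its group for each of these genes and was still below the lowest control. The light chain B2m did not follow the heavy chains, with 587.6, 626.8 and 611.0 RPKM in control and 579.2, 670.5 and 649.9 with antibiotics (0.06 ± 0.09).

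Other members lower without overlap, picked after their values were seen, act before the heavy chain reaches the surface. The immunoproteasome subunit Psmb9 measured 32.5, 33.6 and 35.9 RPKM in control against 22.3, 28.04 and 31.2. The loading factor Tapbp measured 38.1, 38.0 and 38.6 against 33.9, 35.0 and 34.1. The chaperone Calr measured 136.6, 132.7 and 131.7 RPKM against 107.0, 107.2 and 119.0 (-0.27 ± 0.07). Class I heavy chains are close in sequence, and a read shared between them could be placed on more than 1 gene. Without control replicate 1 the count lower without overlap was 17 of 23 (13.6% of all genes), and without any other single library it was 11 to 14 (11.5% to 18.5% of all genes).

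**Figure D4:**
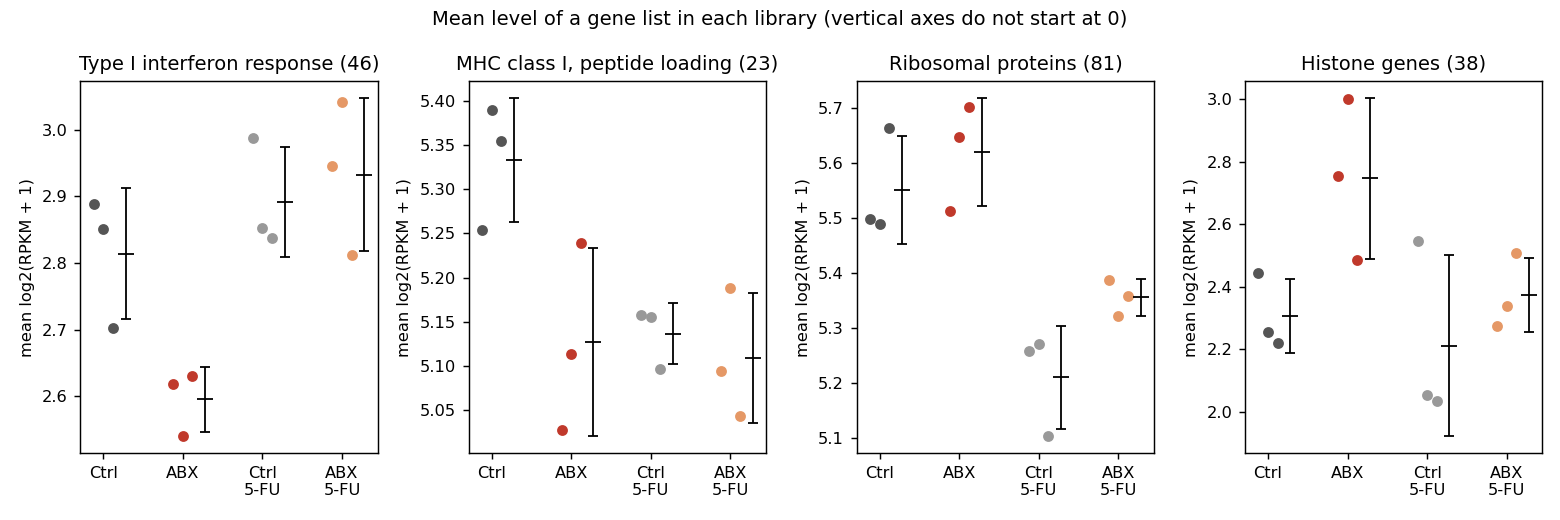
Mean log2(RPKM + 1) over the measured members of 4 gene lists in each of the 12 libraries, by group. Points are libraries, bars the mean ± SD (n = 3), and vertical axes do not start at 0. Some histone genes passed the filter through antibiotic libraries. The antibiotic libraries at steady state lie below the controls for type I interferon genes (2.54 to 2.63 against 2.70 to 2.89) and MHC class I genes (5.03 to 5.24 against 5.25 to 5.39), overlap for ribosomal proteins, and lie above for histone genes (2.485 to 2.999 against 2.22 to 2.44).

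MHC class II genes had a similar median, -0.25 over 12 measured members, but overlapped for every member. H2-Ab1 measured 14.1, 27.4 and 32.3 RPKM in control and 10.6, 12.9 and 17.3 with antibiotics (-0.76 ± 0.31, adjusted p = 0.236 with limma). The invariant chain Cd74 measured 12.2, 28.4 and 39.0 RPKM against 10.8, 17.4 and 25.0 (-0.49 ± 0.42). Control replicate 1 was the low control library for each gene, and without it 7 of the 12 members were lower without overlap, beside 13.6% of all genes. Leaving out antibiotic replicate 3 gave 5, beside 18.5%. In the macrophage gene C1qc control replicate 1 was also the lowest library, at 0.497 RPKM. The other controls measured 5.09 and 5.19 RPKM and the antibiotic libraries 2.31, 9.61 and 4.18. Of 11 measured macrophage markers 9 had a positive and 2 a negative difference, with a median of 0.21. Without control replicate 1 the median was -0.12, and without antibiotic replicate 2 it was -0.10. Among the 11, 1, Apoe, was lower without overlap and 0 were higher. The summed RPKM of the list was 222.5 to 288.2 in control and 178.2 to 231.4 with antibiotics. Apoe alone measured 185.4 to 250.1 RPKM in control and 159.1 to 167.6 with antibiotics, most of that sum. The part of macrophage RNA in the class II values was not tested. In bulk samples such as these, fewer cells of a type and less RNA per cell cannot be told apart.

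Sensors of microbes, NF-kB genes and cytokine receptors showed few differences. Among 22 measured sensing genes the median was -0.09, with 1 lower and 1 higher without overlap (4.5% each, against 9.06% and 13.0%). Leaving out antibiotic replicate 3 gave 10 lower without overlap (18.5% of all genes), and leaving out control replicate 1 gave 4 (13.6% of all genes). The lower one was Tlr2, the receptor of bacterial lipoproteins, with 5.04, 4.96 and 5.33 RPKM in control and 3.76, 4.02 and 4.29 with antibiotics (-0.28 ± 0.09, adjusted p = 0.17 with limma). Among 24 NF-kB genes the median was -0.03, with 2 lower (8.3%) and 1 higher (4.2%) without overlap. The inhibitor gene Nfkbia measured 33.1, 29.9 and 39.5 RPKM against 25.4, 25.9 and 32.8, with overlap. Of 24 cytokine receptors 3 were lower (12.5%) and 2 higher (8.3%) without overlap. Csf3r, the receptor of the granulocyte factor G-CSF, measured 4.92, 5.33 and 6.24 RPKM in control and 2.79, 2.60 and 3.77 with antibiotics (-0.69 ± 0.17, adjusted p = 0.123 with limma). After 5-FU its difference was -0.81 ± 0.17.

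The SOCS, STAT and PIM genes, which restrain or relay cytokine signals, went in both directions. Of 18 measured, 4 were lower (22.2%, against 9.06%) and 3 higher (16.7%, against 13.0%) without overlap. Socs3, the inhibitor of receptors that signal through gp130 and of the G-CSF receptor, measured 3.01, 3.12 and 4.21 RPKM in control and 1.80, 1.57 and 2.004 with antibiotics (-0.66 ± 0.17, adjusted p = 0.123 with limma). Its difference was opposite to that of Socs1. Ebi3, a subunit shared by interleukin 27 and interleukin 35, was among the genes with the smallest p, at 16.6, 18.8 and 14.4 RPKM in control and 26.3, 26.8 and 31.6 with antibiotics (0.73 ± 0.13, adjusted p = 0.0664 with limma). After 5-FU its difference was 0.99 ± 0.13 and passed the test (adjusted p = 0.0111 with limma). The receptor Il27ra measured 6.44, 6.37 and 8.06 RPKM against 6.17, 5.23 and 5.92, lower without overlap (-0.23 ± 0.09).

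Genes of the erythroid and megakaryocyte branches were lower in part. Of 16 measured erythroid genes 5 were lower without overlap (31.2%) and 0 higher, with a median of -0.27. Klf1, the master regulator of red cell genes, measured 2.90, 2.39 and 3.23 RPKM in control and 0.889, 0.376 and 0.547 with antibiotics (-1.27 ± 0.26, adjusted p = 0.0846 with limma). Gata1, the factor shared by the erythroid and megakaryocyte branches, measured 2.15, 1.099 and 1.29 RPKM against 0.622, 0.478 and 0.560 (-0.67 ± 0.19). In both genes all antibiotic libraries were under 1 RPKM. The globins did not follow Klf1, since Hba-a1 was high in control replicate 1 alone and Hbb-bt measured 53.6, 11.3 and 24.5 RPKM in control and 25.2, 40.8 and 37.7 with antibiotics. The summed RPKM of the list was 241.4 to 521.6 in control and 244.0 to 261.4 with antibiotics. Leaving out control replicate 1, 7 of the 16 were lower without overlap, beside 13.6% of all genes, and the median was -0.14. Without control replicate 2 or antibiotic replicate 2 the number was 8, beside 15.1% and 11.8%.

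Of 27 measured megakaryocyte and platelet genes 11 were lower (40.7%, against 9.06%) and 2 higher without overlap, with a median of -0.13. Selp, the P-selectin adhesion receptor, measured 1.77, 3.99 and 3.36 RPKM in control and 1.12, 1.43 and 1.34 with antibiotics (-0.77 ± 0.17, adjusted p = 0.0969 with limma). Thbs1, a matrix protein of platelet granules, measured 5.73, 16.9 and 6.98 RPKM against 0.910, 0.576 and 4.88, so that antibiotic replicate 3 was near the controls (-1.92 ± 0.48). Itgb3, the platelet fibrinogen receptor subunit, measured 1.68, 1.75 and 1.41 RPKM against 0.831, 0.570 and 0.888 (-0.57 ± 0.20). Vwf, which marks platelet-biased HSCs, measured 1.04, 1.44 and 1.63 RPKM against 0.789, 0.623 and 1.03 (-0.38 ± 0.20). Other platelet genes did not share this order. Gp9 lay between 21.01 and 28.2 RPKM in all 6 libraries, and Pf4 was higher in each antibiotic library (41.0 to 45.8) than in control replicates 2 and 3 (22.85 and 22.04). The summed RPKM of the list was 209.9 to 300.6 in control and 220.2 to 236.6 with antibiotics. Without control replicate 1, 11 of 27 were still lower without overlap and 4 were higher, beside 13.6% and 24.3% of all genes.

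**Figure D5:**
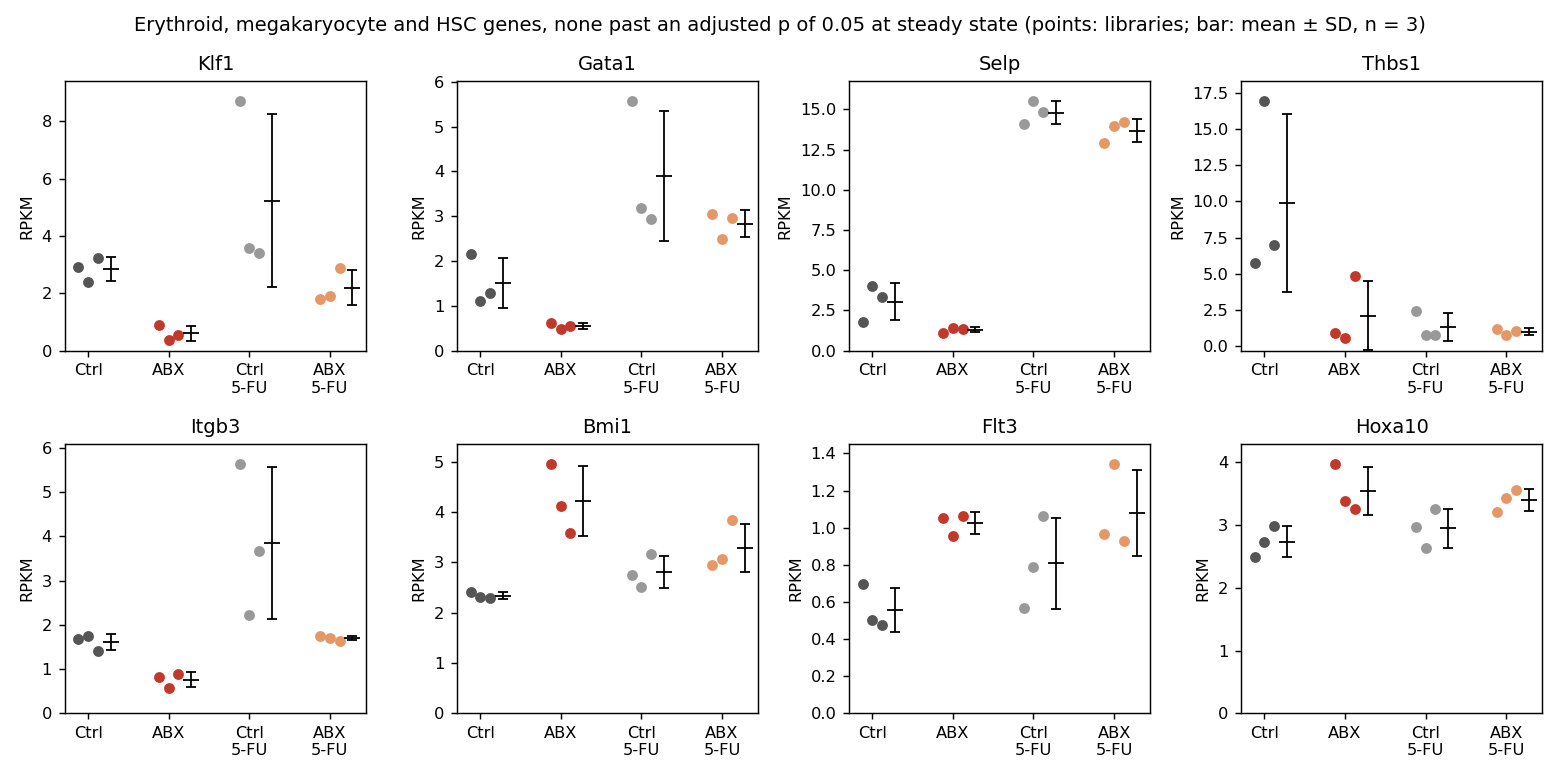
RPKM of 8 genes of the erythroid and megakaryocyte branches and of HSC regulation in each of the 12 libraries, by group. Points are libraries and bars the mean ± SD (n = 3), which for Thbs1 reach below 0. At steady state Klf1, Gata1, Selp, Thbs1 and Itgb3 lie lower with antibiotics and Bmi1, Flt3 and Hoxa10 higher, each without overlap and without passing the adjusted test.

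HSC transcription factors and chromatin genes lay more often on the higher side. Of 24 measured, 8 were higher without overlap (33.3%, against 13.0%) and 1, Nfe2, was lower, with a median of 0.15. Leaving out antibiotic replicate 3 gave 6 lower beside 9 higher (18.5% and 22.1% of all genes), and leaving out control replicate 3 gave 3 lower beside 10 higher (13.2% and 17.6%). Bmi1, a Polycomb subunit needed for HSC self-renewal, measured 2.41, 2.32 and 2.29 RPKM in control and 4.96, 4.12 and 3.59 with antibiotics (0.64 ± 0.11, adjusted p = 0.0607 with limma). Hlf, a factor that marks primitive HSCs, measured 5.63, 5.69 and 6.19 RPKM against 7.70, 7.07 and 7.49 (0.30 ± 0.15). Hoxa10 measured 2.49, 2.72 and 2.99 RPKM against 3.98, 3.38 and 3.26 (0.28 ± 0.09), and Hoxa5 measured 0.366, 0.729 and 0.827 against 1.35, 1.12 and 0.892 (0.38 ± 0.13). The rest of the 8 were Fli1, Dnmt3b, Lmo2 and Ldb1. Mecom, another HSC factor, lay under the filter at 0.269 to 0.376 RPKM and was not tested.

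HSC surface genes lay more often on the lower side. Of 24 measured, 5 were lower (20.8%) and 2 higher without overlap, with a median of -0.14. The lower count was 13 without antibiotic replicate 3 and 11 without control replicate 1, beside 18.5% and 13.6% of all genes. Ly6a, which encodes Sca-1 and is itself an interferon-responsive gene, measured 55.5, 63.7 and 65.6 RPKM in control and 34.7, 45.4 and 59.3 with antibiotics, with overlap (-0.43 ± 0.16). Procr overlapped, with a difference of -0.09 ± 0.14. Among quiescence and imprinted genes, 4 of 18 were higher without overlap (22.2%, against 13.0%) and 0 lower. Of the 18, 10 had a positive and 8 a negative difference, with a median of 0.03 against 0.02 over all genes. Without control replicate 1 or 2 the share higher was 27.8% and 33.3%, beside 24.3% and 15.9% of all genes. Cdkn1c, the inhibitor p57, measured 4.21, 3.63 and 4.53 RPKM in control and 17.6, 8.82 and 6.85 with antibiotics (1.14 ± 0.31, adjusted p = 0.141 with limma), with antibiotic replicate 1 well above the rest. Cdkn1b, the inhibitor p27, measured 1.73, 1.58 and 1.45 RPKM against 2.22, 1.76 and 1.90 (0.19 ± 0.13).

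Lymphoid priming genes were higher in part. Of 15 measured, 7 were higher without overlap (46.7%, against 13.0%) and 0 lower, with a median of 0.17. Flt3, the receptor that marks multipotent progenitors on the way to lymphoid fate, measured 0.696, 0.502 and 0.478 RPKM in control and 1.05, 0.956 and 1.06 with antibiotics (0.38 ± 0.11, adjusted p = 0.153 with limma). Ctla2b, a cysteine protease inhibitor, measured 26.4, 25.1 and 24.7 RPKM against 30.8, 33.6 and 33.3 (0.35 ± 0.09). The others were Ctla2a, Ltb, Notch1, Notch2 and Ikzf1. Tcf3 had a larger difference, 0.54 ± 0.22, but overlapped, at 5.24, 3.45 and 3.99 RPKM against 9.20, 6.41 and 4.64. Of the myeloid progenitor genes 2 of 10 were lower without overlap, and Mpo, under the filter, lay at 0.394 to 0.754 RPKM.

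Replication-dependent histone genes, a list made by symbol after their values were seen, held several of the largest differences below the threshold. Of 38 measured, 15 were higher (39.5%, against 13.0%) and 2 lower without overlap, and the median was 0.42. Members of low level could pass the filter through the antibiotic libraries, which can raise the share higher. Hist1h2an, for example, lay at 0.5454 to 0.8545 RPKM in control and 2.25 to 5.28 with antibiotics. The summed RPKM over all 67 symbols, which needs no filter, overlapped, at 810.9 to 1192.8 in control and 1015.7 to 1952.4 with antibiotics. Hist2h2ac measured 3.49, 4.04 and 4.40 RPKM in control and 14.9, 19.2 and 12.2 with antibiotics (1.71 ± 0.32, adjusted p = 0.0819 with limma). The linker histone gene Hist1h1d measured 3.67, 3.796 and 4.51 RPKM against 11.1, 16.3 and 6.91 (1.25 ± 0.21, adjusted p = 0.0607 with limma). Hist1h2ab measured 5.86, 5.39 and 5.36 RPKM against 14.9, 13.7 and 13.4, with little spread in either group (1.20 ± 0.21, adjusted p = 0.0664 with limma). Hist1h2ae measured 21.8, 15.4 and 15.8 RPKM against 49.8, 133.0 and 34.2 (1.75 ± 0.41). Antibiotic replicate 2 was the highest library for most of these genes, and without it 16 of the 38 were higher without overlap (17.3% of all genes) and the median was 0.32. Histone messages of this class end in a stem loop and normally carry no poly(A) tail, and the part of RNA capture in their values was not tested. Members are close in sequence, so reads may be shared.

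Cell cycle genes overlapped more. Of 46 measured S phase genes 43 had a positive difference, with a median of 0.13, but 2 were higher without overlap (4.3%, against 13.0%), Rpa3 and Hells. Rpa3, a subunit of replication protein A, measured 9.10, 8.27 and 8.08 RPKM in control and 11.6, 12.9 and 10.3 with antibiotics (0.41 ± 0.11). Of 46 G2/M genes 7 were higher without overlap (15.2%), with a median of 0.11. Mki67, the proliferation antigen, measured 3.69, 3.11 and 3.44 RPKM in control and 5.19, 4.85 and 2.85 with antibiotics, and antibiotic replicate 3 was the lowest of all 6. Antibiotic replicate 3 and control replicate 1 set the overlap of these lists. Without antibiotic replicate 3, 21 S phase and 19 G2/M genes were higher without overlap, and without control replicate 1, 14 and 18, beside 22.1% and 24.3% of all genes. The chromatin gene Dek, which is linked to HSC quiescence, measured 4.33, 3.43 and 4.56 RPKM against 7.49, 7.48 and 5.54 (0.61 ± 0.12, adjusted p = 0.0846 with limma).

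Cytosolic ribosomal protein genes differed little as a whole. Of 81 measured, 16 were higher (19.8%, against 13.0%) and 3 lower without overlap, with a median of 0.07. Rpl39 measured 31.8, 33.5 and 36.2 RPKM in control and 44.7, 45.3 and 49.4 with antibiotics (0.45 ± 0.10, adjusted p = 0.0969 with limma), and Rpl24 measured 8.76, 8.70 and 9.43 against 11.3, 12.3 and 11.6 (0.35 ± 0.07). Rpl4 was lower, at 191.8, 179.6 and 197.8 RPKM against 154.7, 140.5 and 171.6 (-0.29 ± 0.08). Without control replicate 3 or antibiotic replicate 1 the number higher without overlap was 36 and 32, beside 17.6% and 17.4% of all genes. Leaving out antibiotic replicate 3 gave 13 lower and 18 higher, beside 18.5% and 22.1%. The many processed pseudogenes of this family can take reads from the parent genes. Of 49 ribosome biogenesis genes 3 were higher and 3 lower without overlap (6.1% each, against 13.0% and 9.06%). Leaving out control replicate 2 gave 11 lower and 4 higher (15.1% and 15.9% of all genes), and 8 were higher without control replicate 1 or control replicate 3 (24.3% and 17.6%). Without antibiotic replicate 3, 7 were (22.1%). Of 75 nuclear subunits of oxidative phosphorylation 9 were higher (12.0%) and 2 lower, with a median of 0.03. Of these, 24 were higher without control replicate 1 and 19 without antibiotic replicate 1, beside 24.3% and 17.4% of all genes. Leaving out control replicate 2 gave 13 lower and 9 higher with a median of -0.02, beside 15.1% and 15.9%. Lower without antibiotic replicate 2 or 3 were 7 and 8, beside 11.8% and 18.5%.

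Genes of fatty acid oxidation lay below control by small amounts. Of 25 measured, 23 had a negative difference, 8 were lower without overlap (32.0%, against 9.06%) and 0 higher, with a median of -0.10. Acadvl, the very long chain acyl-CoA dehydrogenase, measured 23.04, 20.8 and 20.5 RPKM in control and 17.5, 16.2 and 17.4 with antibiotics (-0.32 ± 0.07, adjusted p = 0.0969 with limma). Etfb, which passes electrons from these dehydrogenases, measured 18.3, 16.3 and 17.9 RPKM against 13.1, 14.6 and 13.8 (-0.32 ± 0.09). Without antibiotic replicate 3 the list had 13 lower without overlap, beside 18.5% of all genes.

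Glycolysis genes lay more often on the lower side. Of 25 measured, 19 had a negative difference, with a median of -0.11. Without overlap 6 were lower and 4 higher, beside 9.06% and 13.0% of all genes. An unadjusted p under 0.05 with limma was found for 7 lower members and 1 higher member. Aldoa measured 105.7, 111.3 and 112.8 RPKM in control and 85.6, 76.7 and 103.9 with antibiotics (-0.32 ± 0.11), and Pfkl measured 14.3, 12.8 and 14.2 against 11.1, 11.4 and 11.8 (-0.25 ± 0.08). Those higher without overlap were Pgam1, Slc2a1, Pdk1 and Hif1a. In autophagy and lysosome 6 of 30 were lower and 2 higher without overlap. The autophagy receptor Sqstm1 measured 30.8, 27.4 and 26.4 RPKM against 20.03, 21.1 and 25.4 (-0.33 ± 0.09), and the protease Ctsd measured 32.5, 34.1 and 31.1 against 23.1, 28.2 and 27.6 (-0.30 ± 0.09). Among antioxidant genes 6 of 29 were lower (20.7%) and 3 higher (10.3%) without overlap. Srxn1, which restores peroxiredoxins, measured 6.40, 6.87 and 7.74 RPKM against 5.26, 4.80 and 5.08 (-0.40 ± 0.09). In the unfolded protein response 4 of 27 were lower (14.8%, against 9.06%) and 1 higher (3.7%, against 13.0%) without overlap. The higher one was the stress factor Atf4, at 27.8, 26.8 and 28.1 RPKM against 33.2, 33.7 and 38.2 (0.33 ± 0.07). Without antibiotic replicate 3 the lower counts were 13 for glycolysis, 15 for autophagy and lysosome, 10 for antioxidant genes and 9 for the unfolded protein response, beside 18.5% of all genes. Without control replicate 1 they were 9, 7, 7 and 9, beside 13.6%, and without control replicate 3 they were 7, 11, 9 and 8, beside 13.2%.

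Iron genes differed little. Of 17 measured, 1 was higher and 1 lower without overlap (5.9% each, against 13.0% and 9.06%), and the median was 0.03. Tfr2, a sensor of transferrin iron, measured 12.3, 12.4 and 14.2 RPKM in control and 9.99, 10.1 and 11.3 with antibiotics (-0.29 ± 0.10). Ncoa4, which carries ferritin to lysosomes, measured 9.88, 7.23 and 7.48 RPKM against 10.02, 11.1 and 10.1 (0.32 ± 0.12). The ferritin chain Fth1 overlapped, at 471.6, 498.2 and 533.2 RPKM against 462.7, 537.3 and 543.5 (0.04 ± 0.09). The exporter Slc40a1 overlapped as well (-0.07 ± 0.24), and the receptor Tfrc lay under the filter in the 6 libraries, at 0.508 to 0.740 RPKM. Of 27 genes of iron-sulfur cluster and heme synthesis 5 were lower (18.5%) and 2 higher without overlap, among them the scaffold Iscu at 9.16, 7.68 and 8.35 RPKM against 14.1, 11.4 and 10.5 (0.46 ± 0.15).

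The remaining lists held 0 to 3 members without overlap in a direction, apart from 6 of 18 niche adhesion genes that were lower (33.3%), of which Selp, Thbs1 and Itgb3 also stand in the megakaryocyte list. No more than 1 in a direction was found for heat shock chaperones, glucocorticoid response, circadian clock, p53 targets, the GADD45, BTG and TOB genes and the receptors of microbial metabolites. For heat shock chaperones, leaving out control replicate 1 gave 7 of 21 higher and leaving out antibiotic replicate 3 gave 6, beside 24.3% and 22.1% of all genes, and leaving out control replicate 2 gave 4 lower, beside 15.1%. Small counts given above moved in the same way with 1 library left out. Lower counts reached 6 for cytokine receptors and for the SOCS, STAT and PIM genes, and 5 for NF-kB genes, without antibiotic replicate 3 (18.5% of all genes), 4 for iron genes without control replicate 1 (13.6%), and 8 for iron-sulfur and heme genes without control replicate 2 (15.1%). Among clock genes Bhlhe40 was lower, at 2.33, 5.75 and 2.99 RPKM in control and 1.19, 1.65 and 2.10 with antibiotics (-0.77 ± 0.24). Tiparp, a target of the aryl hydrocarbon receptor that senses microbial indoles, measured 0.432, 0.508 and 0.397 RPKM against 0.736, 0.694 and 0.744 (0.25 ± 0.08). For chemokines and cytokines 3 of 18 were higher (16.7%, against 13.0%) and 1 lower (5.6%, against 9.06%). For cholesterol synthesis and uptake 2 of 23 were higher (8.7%) and 1 lower (4.3%). The last list had 9 higher when control replicate 1 was left out (24.3% of all genes), 4 higher without antibiotic replicate 2 (17.3%), and 4 lower without control replicate 2 or antibiotic replicate 3 (15.1% and 18.5%). Immediate early genes, which rise when cells are dissociated, had 2 of 19 higher (10.5%, against 13.0%) and 0 lower. Jund was high in antibiotic replicate 1, at 7.47 RPKM against 3.37 and 1.77 in the other antibiotic libraries and 2.13, 1.32 and 1.62 in control.

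The same antibiotic difference was read in the 6 libraries taken at day 12 after 5-FU, which share no library with the steady-state comparison. There 10 genes passed the adjusted test (0.117%), 6 higher (0.0702%) and 4 lower (0.0468%), and 658 genes (7.69%) were higher and 617 (7.21%) lower at an unadjusted p under 0.05. Of the called genes, 2 were also called at steady state, Rn7sk and Rn18s-rs5. The difference between the comparisons passed the adjusted test for 1 gene (0.0117%), the predicted gene Gm37599, and had an unadjusted p under 0.05 for 710 (8.3%). Across all 8553 genes the log2 differences of the comparisons correlated at r = 0.39, as a description over genes that are not independent. Of the 1519 genes with an unadjusted p under 0.05 at steady state, 1199 (78.9%) had the same sign after 5-FU, against 62.9% of all genes. Snn, which encodes the small membrane protein stannin, had 2.71, 2.42 and 2.61 RPKM in control and 3.84, 3.78 and 3.82 with antibiotics at steady state (0.43 ± 0.08, adjusted p = 0.0682 with limma). After 5-FU its difference was 0.70 ± 0.08 and passed the test (adjusted p = 0.00315 with limma). Smim5, another small membrane protein gene, measured 7.23, 6.17 and 8.06 RPKM in control and 4.88, 5.13 and 5.21 with antibiotics at steady state (-0.42 ± 0.09, adjusted p = 0.0846 with limma), and its difference of -0.61 ± 0.09 after 5-FU passed the test (adjusted p = 0.0242 with limma).

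After 5-FU the type I interferon genes were spread around 0. Of the 46 type I genes 5 were higher (11.5% of all genes) and 1 lower (9.67%) without overlap there, with a median of -0.001. The difference between the comparisons, tested per gene, had an unadjusted p under 0.05 for 11 members, all 11 more negative at steady state (4.0% of all genes in that direction), and 0 of them passed the adjusted test in limma. MHC class I genes had a median of -0.004 after 5-FU, with 1 higher and 5 lower without overlap, and the per-gene difference had an unadjusted p under 0.05 for 4 of 23. The 17 interferon gamma genes had a median of 0.11 after 5-FU, with 2 below 0 and 0 without overlap in either direction. Histone genes had a median of 0.04 there, with 6 of 38 higher and 1 lower without overlap. In neither list did a member pass the adjusted test of the difference between the comparisons. Fatty acid oxidation genes had a median of 0.07 after 5-FU, and 39 of 81 ribosomal protein genes were higher without overlap there. Depth did not separate the groups after 5-FU, with 27.7 to 54.0 M reads in control and 31.7 to 38.5 M reads in antibiotic libraries.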

How the data were processed

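The deposited table gives RPKM per gene for 12 libraries of sorted mouse HSCs, made by the authors with SMART-Seq v4 and Nextera XT per the labels' protocols, and with STAR 2.5.3a, Partek and mm10 per the submitters' processing notes. How reads were counted, whether strand was used, which annotation was taken and how the HSCs were gated is not given in the sources used here. A floor of 0.0001 stands in place of 0. Depth was read off the spacing of low RPKM values, of which 49.2% to 53.9% were whole within 2%, so no count test was run. Groups follow the labelled cell source.

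Genes with 1 RPKM or more in at least 3 of 12 libraries (8553 of 46986 features) were tested on log2(RPKM + 1) with limma 3.58.1 in R 4.3.3, using a trended prior, 4 group means over all 12 libraries and Benjamini-Hochberg adjustment over all genes tested. SE values come from this fit. A single-gene exact permutation test of 3 against 3 cannot go below 0.1 and was not run. On simulated data the fit recovered 96% of 100 genes changed by 1 on the log2 scale and 57% of 100 changed by 0.5, with 6 false calls among 8553 genes. The changed genes lay above 5 RPKM in control, and the simulated noise was normal and independent between genes. Many more genes were changed than the 6 called in the data, which eases the adjusted threshold. These shares are therefore not the power of the comparison itself.

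Named genes were the called genes by size of change, up to 12 a direction, with a mean of 5 RPKM in the higher group and without overlap, filled to 8 by unadjusted p, leaving out pseudogenes, predicted and mitochondrial genes. To these were added the 3 members of smallest p of each list, and a set of fixed genes. Gm5537, Gm37599, the 5.8S and signal recognition particle RNAs, the histone genes, the globins and other members named to describe a list were chosen after their values were seen. The comparison and the 44 lists were chosen with earlier results of these data known. A list is described by counts and its median beside all genes, with no test of the list. Alternatives covered the filter, the pseudocount, the scaling, the libraries fitted, the sequencing index and each library left out. Some items are not reported here. Figures were drawn with matplotlib 3.10.9.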

Additional observations from a re-analysis of the deposited data

Results flagged for a closer look

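The antibiotic difference of the predicted gene Gm37599, at chr1:141356789-141357277, was itself different between the comparisons. It was 0.15 on the log2 scale at steady state and -0.85 after 5-FU, and the second minus the first was -1.0 (adjusted p = 0.0134 with limma), the single gene past the test of that difference among 8553.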

How the results depend on the processing

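At steady state the main count of 6 called features (3 higher, 3 lower) became 24 (19 and 5) with a mean of 5 RPKM or more required. It became 11 (3 and 8) with no filter and 13 (5 and 8) after rescaling to TPM. With protein-coding genes alone it was 0 (0 and 0). With only the 6 steady-state libraries it was 5 (4 and 1), of which Rn7sk alone was among the main 6. A fit of these 6 libraries with the sequencing index as a block gave 14 (12 and 2). It kept 4 of the main 6, without Ccdc28b and Zfp513. Leaving out 1 library gave 1 to 29 in all, 1 to 23 higher and 0 to 6 lower. Called after 5-FU (main count 10) were 23 with a mean of 5 RPKM, 6 among protein-coding genes, 72 after quantile normalization and 47 after rescaling to TPM. For the difference between the comparisons (main count 1) there were 0 with a mean of 5 RPKM, 7 with no filter and 0 among protein-coding genes. The cause of these shifts was not tested. The type I interferon median was -0.331 after rescaling to TPM and -0.271 to -0.192 with 1 library left out, and the MHC class I median was -0.317 to -0.189. With 1 library left out, differences that changed sign ranged from -0.116 to 0.951 for C1qc (negative without control replicate 1), from -0.198 to 0.028 for Klrb1c, from -0.228 to 0.003 for Procr, from -0.006 to 0.111 for Fth1 (also -0.005), from -0.663 to 0.042 for Ngp (also 0.015), from -0.18 to 0.431 for Ifit3, and from -0.335 to 0.094 for Slc40a1 (also 0.028 and 0.041). Control and antibiotic libraries were not paired by replicate, because the labels give no replicate numbers that join them. The libraries that share an index did not deviate together (r = 0.28, -0.11 and 0.07), so the index block is an alternative only. The shallower antibiotic libraries limit what can be seen in genes of a few RPKM.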
